A study of Mus musculus with 24 samples.

Results

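The insulin-like growth factor (IGF) system was followed here as 10 genes: the ligands Igf1 and Igf2, the receptors Igf1r and Igf2r, and the binding proteins Igfbp2, Igfbp3, Igfbp4, Igfbp5, Igfbp6 and Igfbp7. All probes with these gene symbols in the platform annotation were taken, 24 of the 45281 probes on the array, so that the members were 10 of 19057 named genes. Each gene is shown by its probe of highest mean level, and its other probes serve as checks. The list was drawn up with Igf1 in the raphe of SMA mice already known to be low and variable, so the members' differences between SMA and WT raphe are given as a description without a test.

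IGF ligands are secreted peptides that bind the receptor tyrosine kinase Igf1r, which signals through Irs and Shc adaptors to Akt and the mTOR pathway and promotes growth and survival. Igf2r binds Igf2 and carries it to the lysosome, and the binding proteins hold the ligands outside the cell, limiting or prolonging their action until proteases such as Pappa and Htra1 release them. In the developing nervous system, IGF signalling is known for supporting the survival and axon growth of motor and sensory neurons and the growth of glia.

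The 24 single-colour bead arrays came from FVB mice at postnatal day 4 and fell into 8 groups of 3, described by the submitters as biological replicates. Each tissue was taken from wild-type (WT) and from SMA mice: 2 spinal cord columns, the medial (MMC) and lateral (LMC) motor column, as well as dorsal root ganglia (DRG) and the brain stem raphe. The label SMA was taken to stand for spinal muscular atrophy, a motor neuron disease of low survival motor neuron protein. Which allele these animals carried, how cells were collected and whether animals were pooled was not stated in the labels, and all RNA was amplified from very small amounts. Smn1, which encodes that protein in the mouse, was above background on 12 of 12 WT arrays, at log2 levels of 9.42 to 10.84, and on 0 of 12 SMA arrays.

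Between 33.7 and 49.7% of an array's probes were above background, the lowest share being that of SMA LMC replicate 2. Marker lists followed the labelled tissues, though the motor neuron list did so less clearly by its sum. The summed log2 level of serotonergic markers was 12.31 to 13.47 on raphe arrays and at most 8.77 elsewhere, and that of sensory markers was highest in DRG. All 8 motor neuron markers were above background on each WT array of both motor columns. Their sum was 13.01 to 13.24 in WT MMC and 12.57 to 12.77 in SMA MMC, against 12.59 to 12.83 in WT DRG. Prph and Isl1 of this list had their highest means in WT DRG, where 3 of the 8 markers were above background on no array. Other cells were present too: all 7 astrocyte markers were above background on every array of WT MMC and WT raphe, and the oligodendrocyte sum reached 12.59 to 13.10 in WT MMC, against 9.45 to 10.69 for WT LMC. In such bulk samples, fewer cells of a type and less RNA per cell cannot be told apart. The 6 arrays of each tissue lay on a chip of their own, so genotypes were compared within a chip, while tissue and chip cannot be told apart. On every chip the WT arrays held positions A to C and the SMA arrays D to F, so genotype and chip position cannot be told apart either.

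Below are the 250 bases upstream of the annotated start of 4 members, from the RefSeq promoter table of GRCm38.p6, 5′ to 3′ on the gene's strand. These members are shown because each stood apart in 1 WT tissue from all 3 others: Igf1, Igfbp3 and Igfbp4 in the raphe and Igfbp5 in DRG. The windows are chr10:87860861-87861110 on the plus strand for Igf1, chr11:7213924-7214173 on the minus strand for Igfbp3, chr11:99040994-99041243 on the plus strand for Igfbp4 and chr1:72874866-72875115 on the minus strand for Igfbp5. Capitals mark matches on either strand. The letters searched were TATAAA for the core promoter box of that name, then CCAAT for the element of that name, and last GGGCGG for the GC box; no matches overlapped in these windows.
Igf1: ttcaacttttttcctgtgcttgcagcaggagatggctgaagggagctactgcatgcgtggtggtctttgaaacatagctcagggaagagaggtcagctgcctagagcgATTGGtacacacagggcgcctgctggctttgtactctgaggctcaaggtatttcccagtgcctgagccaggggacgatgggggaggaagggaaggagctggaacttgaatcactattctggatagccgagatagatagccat
Igfbp3: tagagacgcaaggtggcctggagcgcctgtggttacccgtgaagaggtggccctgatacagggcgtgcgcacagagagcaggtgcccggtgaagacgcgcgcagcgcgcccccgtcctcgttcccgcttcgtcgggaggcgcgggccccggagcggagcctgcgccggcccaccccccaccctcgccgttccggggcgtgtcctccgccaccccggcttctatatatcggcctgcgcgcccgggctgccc
Igfbp4: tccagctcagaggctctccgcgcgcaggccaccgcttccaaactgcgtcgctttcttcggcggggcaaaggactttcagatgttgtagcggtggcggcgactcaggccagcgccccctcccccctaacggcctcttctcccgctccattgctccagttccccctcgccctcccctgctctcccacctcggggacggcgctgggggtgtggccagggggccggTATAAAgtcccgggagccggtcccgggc
Igfbp5: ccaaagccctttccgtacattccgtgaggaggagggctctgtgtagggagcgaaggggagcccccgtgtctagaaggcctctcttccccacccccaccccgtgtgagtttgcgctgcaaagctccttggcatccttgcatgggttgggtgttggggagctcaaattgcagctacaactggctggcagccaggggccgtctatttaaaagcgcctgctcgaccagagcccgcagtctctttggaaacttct
The Igf1 window held 1 CCAAT match, on the opposite strand, and the Igfbp4 window 1 TATAAA match. The Igfbp3 and Igfbp5 windows held none of these letters. Of 32851 such windows in the table, 12.4% held TATAAA, 33.8% CCAAT and 32.7% GGGCGG, so the matches describe the windows and single out none of them. GC content was 52.8% for Igf1, 58.8% for Igfbp5, 69.2% for Igfbp4 and 73.2% for Igfbp3.

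Of the 10 members, 8 were above background on all 24 arrays. Igf2 was above background on 22, all but SMA LMC replicates 1 and 3. Igfbp6, a binding protein with a preference for Igf2, was above background on 0 of 24 arrays with its single probe and was not tested, so the comparisons rest on 9 members. Levels are log2 values of normalized intensity; they compare arrays for 1 probe and are not set against each other between genes.

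**Figure D1:**
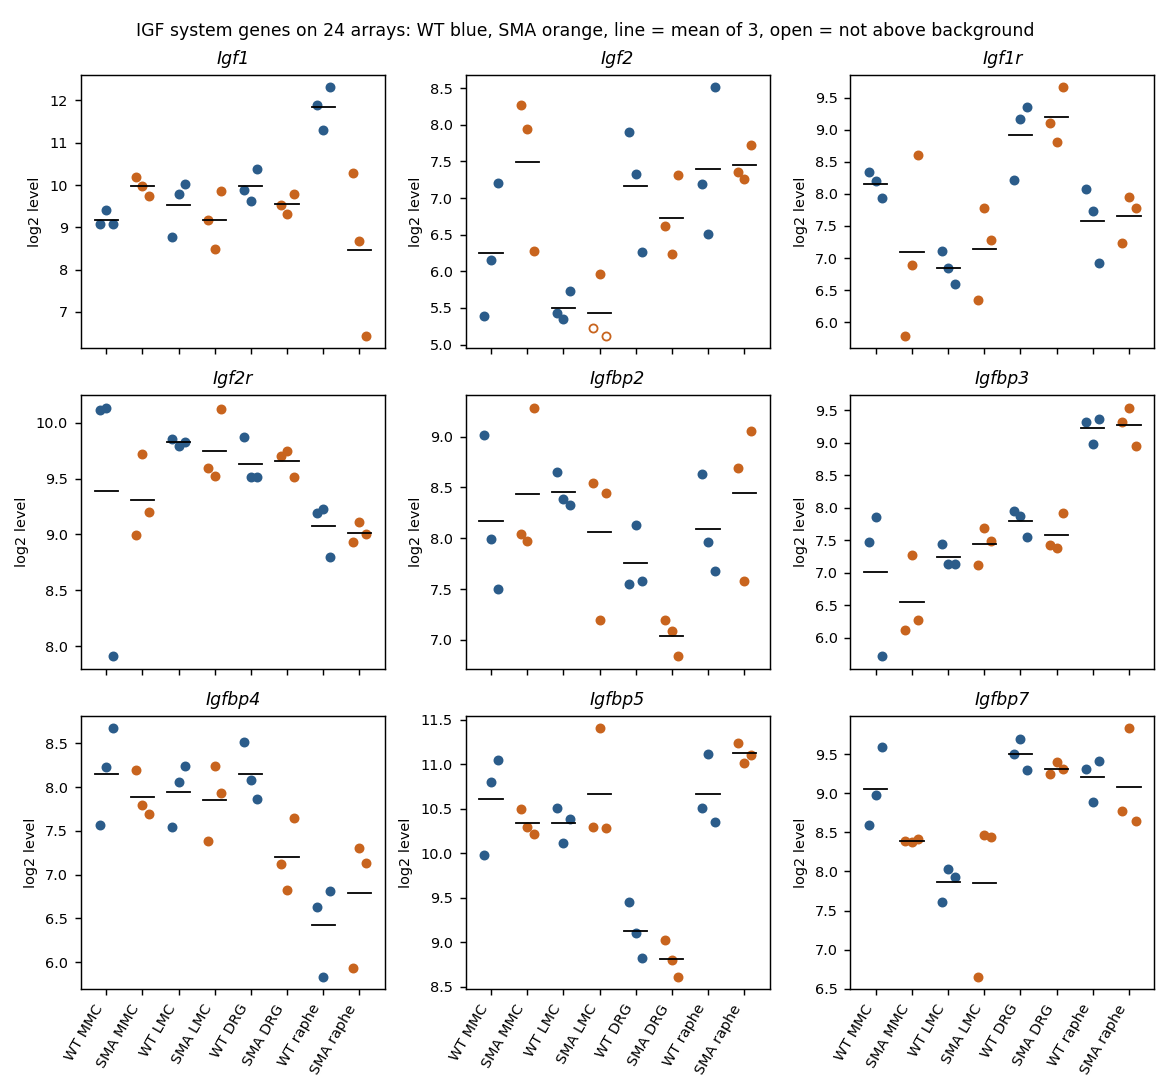
Log2 level of the 9 members above background (y axis, 1 panel a gene, axes differ) on each of 24 arrays, by group (x axis); points are arrays, lines are means of 3, and open points were not above background. Igf1 in SMA raphe spread from 6.44 to 10.28, Igfbp3 was high in the raphe of both genotypes and Igfbp5 was low in DRG of both.

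Igf1, the ligand of Igf1r, was far higher in the raphe of WT mice than in that of SMA mice. In WT raphe its levels were 11.89, 11.30 and 12.32, the 3 highest of all 24 arrays. In SMA raphe they were 10.28, 8.68 and 6.44, all above background. The SMA raphe arrays lay below every WT raphe array, and the lowest of them was also the lowest of the series. The means were 11.84 ± 0.51 (SD, n = 3) and 8.47 ± 1.93, a difference of -3.37 on the log2 scale, or 10.4-fold lower in SMA raphe.

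The 3 SMA raphe arrays differed among themselves by more than almost any other gene did. Among genes above background on at least 1 of the 3 SMA raphe arrays the median SD was 0.39, and the Igf1 SD stood at percentile 99.8. In WT raphe the median SD was 0.32 and Igf1 stood at percentile 75.9. Leaving out SMA raphe replicate 1 moved the difference to -4.28 and leaving out replicate 3 moved it to -2.36.

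The second Igf1 probe gave the same direction. In WT raphe it read 9.66, 8.87 and 9.87, again the 3 highest of its 24 values. In SMA raphe it read 5.34, 4.91 and 4.56, of which only the first was above background. Its SD of 0.39 there lies near background and cannot be set against that of the probe shown. The difference was -4.53, and the groups did not overlap with either probe.

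**Figure D2:**
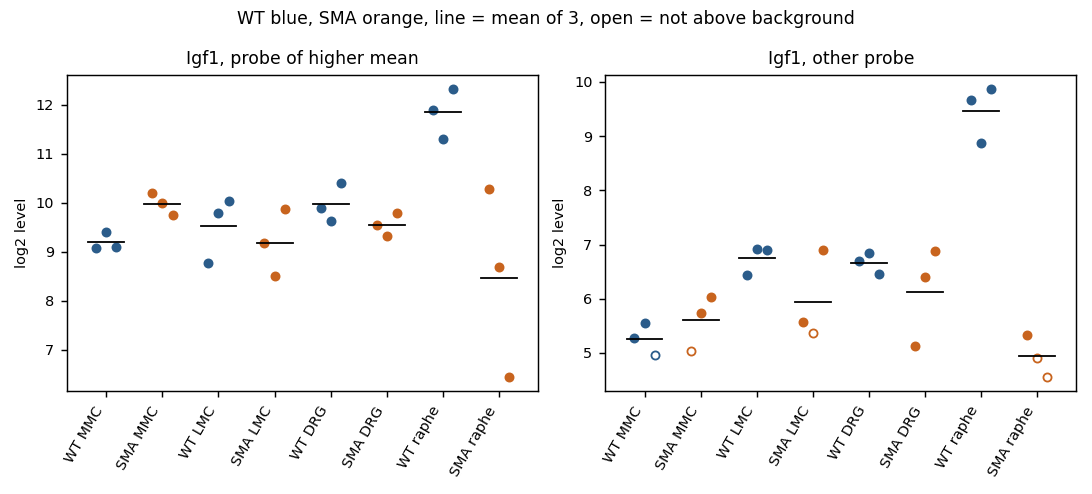
Log2 level of Igf1 (y axes, which differ) by group (x axis) for the probe of higher mean (left) and the other probe (right); points are arrays, lines are means of 3 and open points were not above background. With both probes the 3 WT raphe arrays are the highest and the 3 SMA raphe arrays lie below them.

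Several marker sums also differed between the SMA and WT raphe arrays. For red blood cells, with 3 markers of which 2 were above background on every raphe array, the log2 sums were 11.03, 10.04 and 9.95 in WT and 7.30, 8.93 and 8.61 in SMA. The SMA array with the highest Igf1 had the lowest red blood cell sum, though nothing is read from a single array. Endothelial sums over 7 markers were 10.95 to 11.33 in WT and 10.65 to 10.93 in SMA. Sums of 7 fibroblast and meningeal markers were 8.84 to 10.27 in WT and 8.55 to 8.63 in SMA, and 3 of these markers were above background on no SMA raphe array, against 0 for WT. Serotonergic sums, over 6 markers, were 12.31 to 12.87 in WT and 13.09 to 13.47 in SMA. The sums of microglial and astrocyte markers were 10.93 to 11.62 and 13.49 to 13.84 in WT, against 10.90 to 11.33 and 13.30 to 13.47 in SMA. The part of these cell types in the Igf1 difference was not tested.

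With the probes shown, the other 8 members had log2 differences between SMA and WT raphe from -0.12 for Igfbp7 to 0.46 for Igfbp5, and their groups overlapped. Other probes ran wider, from -0.88 for Igf1r to 0.86 for Igfbp3, and the second Igfbp4 probe had the opposite sign (-0.35 against 0.37). Leaving out 1 array moved Igfbp2 from 0.35 to as far as 0.78 (without SMA raphe replicate 2) and Igfbp4 to 0.79 (without SMA raphe replicate 1). Igfbp5, an extracellular binding protein, read 11.24, 11.02 and 11.11 in SMA raphe and 10.51, 11.12 and 10.36 in WT raphe. Igf1r differed by 0.08 and Igf2 by 0.04. Igf1 was thus 1 of 9 members whose raphe groups did not overlap, where 14.5% of the 9424 genes measured in raphe did not overlap and 0.244% passed the adjusted threshold; nothing is read from these shares, since the list was chosen on this contrast.

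Outside the raphe, Igf1 levels lay closer together. The WT MMC arrays read 9.07, 9.40 and 9.08 and the SMA MMC arrays 10.20, 9.99 and 9.74. The WT LMC arrays read 8.77, 9.78 and 10.03 and the SMA LMC arrays 9.17, 8.49 and 9.86. For DRG the values were 9.88, 9.63 and 10.39 (WT) and 9.54, 9.31 and 9.79 (SMA). Only the MMC groups did not overlap, with the 3 SMA arrays above the 3 WT arrays.

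SMA minus WT was 0.79 ± 0.57 (SE) for MMC, -0.35 ± 0.57 for LMC and -0.42 ± 0.57 for DRG, with limma adjusted p-values of 0.557, 0.912 and 1.00. The second probe differed by 0.34, -0.80 and -0.53. The order of Igf1 means in WT was raphe, DRG, LMC and MMC, and in SMA it was MMC, DRG, LMC and raphe. In WT the last 3 of this order did not differ past the threshold.

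Among WT tissues, the raphe carried more Igf1 than every other tissue. The log2 difference was 2.65 ± 0.57 (SE, limma adjusted p = 0.00261) against MMC, or 6.30-fold, 2.31 ± 0.57 (limma adjusted p = 0.00431) against LMC and 1.87 against DRG, where the contrast DRG minus raphe was -1.87 ± 0.57 (limma adjusted p = 0.0216). The second probe gave 4.21, 2.72 and, as DRG minus raphe, -2.80; it also placed LMC above MMC by 1.49, where the probe shown differed by 0.34. These tests use the same WT raphe arrays as the contrast on which Igf1 was noticed, so they are not independent of its choice and are given as a description. The call against DRG was lost without WT DRG replicate 1 or 2 or without WT raphe replicate 1 or 3, with limma adjusted p-values of 0.0603 to 0.102.

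Igf2, the second ligand, was dim and varied among replicates. Its WT levels were 5.39, 6.16 and 7.20 for MMC, 5.43, 5.35 and 5.73 for LMC, 7.90, 7.33 and 6.26 for DRG and 7.19, 6.50 and 8.52 for raphe. LMC was the tissue with the lowest values, below every DRG and raphe array. Raphe exceeded LMC by 1.90 ± 0.57 (SE, limma adjusted p = 0.0155) and DRG exceeded LMC by 1.66 ± 0.57 (limma adjusted p = 0.0375). The DRG call was lost under 8 of 33 alternatives, among them leaving out any WT LMC array or WT DRG replicate 1 or 2, and the raphe call without WT raphe replicate 3 (limma adjusted p = 0.112).

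The signalling receptor Igf1r was highest in DRG with the probe shown. Its WT levels were 8.22, 9.17 and 9.36 in DRG, 8.34, 8.20 and 7.93 in MMC, 8.08, 7.74 and 6.92 in raphe and 7.10, 6.84 and 6.60 in LMC. DRG exceeded LMC by 2.07 ± 0.52 (SE, limma adjusted p = 0.00538), or 4.19-fold, and no other tissue pair passed. The 3 other Igf1r probes, above background on 14, 6 and 16 arrays, differed between DRG and LMC by 0.76, -0.15 and 0.38, so the size of this difference rests on the probe shown. Igf2r, the clearance receptor for Igf2, read between 8.80 and 10.13 on all WT arrays but WT MMC replicate 3, at 7.91, and passed in 0 of the 6 tissue pairs. Without that array, Igf2r in raphe was lower than in MMC by -1.05 and than in LMC by -0.75, with limma adjusted p-values of 0.00581 and 0.0103. With all arrays, the second Igf2r probe differed by 0.07 and -0.52 in these pairs. WT MMC replicate 3 also had the highest fibroblast sum of MMC, at 10.43, against 10.40 on SMA MMC replicate 1. Its endothelial and red blood cell sums, 11.69 and 11.82, were the highest of MMC too, and 38.2% of its probes were above background. The part of these in its Igf2r level was not tested.

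Igfbp3, the main carrier of IGF in blood, stood high in the raphe. It read 9.32, 8.97 and 9.37 in WT raphe, 7.95, 7.87 and 7.55 in WT DRG, 7.44, 7.14 and 7.14 in WT LMC and 7.48, 7.86 and 5.72 in WT MMC. Every raphe array lay above every other WT array. Raphe exceeded MMC by 2.20 ± 0.42 (SE, limma adjusted p = 0.000927) and LMC by 1.98 ± 0.42 (limma adjusted p = 0.00136), and DRG minus raphe was -1.43 ± 0.42 (limma adjusted p = 0.0177). The second probe gave 1.79, 2.28 and -1.07. The call against DRG was lost without WT DRG replicate 3 or WT raphe replicate 1 or 3, with limma adjusted p-values of 0.0572 to 0.0656, and with median scaling (limma adjusted p = 0.0938).

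Igfbp4, a substrate of the protease Pappa, stood low in the raphe. Its levels were 6.63, 5.83 and 6.82 in WT raphe, 8.51, 8.08 and 7.86 in WT DRG, 7.54, 8.06 and 8.24 in WT LMC and 7.56, 8.23 and 8.67 in WT MMC. Raphe minus MMC was -1.73 ± 0.41 (SE, limma adjusted p = 0.00543), raphe minus LMC was -1.52 ± 0.41 (limma adjusted p = 0.00784) and DRG minus raphe was 1.73 ± 0.41 (limma adjusted p = 0.00349). The call against MMC was lost with only the arrays compared (limma adjusted p = 0.0519), and that against LMC with the mean of all probes (limma adjusted p = 0.0701) or without WT raphe replicate 2 (limma adjusted p = 0.0522). The second probe gave -0.67, -0.27 and 1.81, and placed DRG above MMC by 1.15 and above LMC by 1.54 where the probe shown differed by less than 0.21. The 2 probes thus agreed in direction on the raphe and in size only against DRG.

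Igfbp5, the binding protein cleaved by Htra1, stood low in DRG. Its levels were 9.46, 9.11 and 8.82 in WT DRG, 9.98, 10.80 and 11.04 for WT MMC, 10.51, 10.11 and 10.38 for WT LMC and 10.51, 11.12 and 10.36 in WT raphe. Every DRG array lay below every other WT array. DRG was lower than MMC by -1.48 ± 0.28 (SE, limma adjusted p = 0.000522), than LMC by -1.20 ± 0.28 (limma adjusted p = 0.00322) and than raphe by -1.53 ± 0.28 (limma adjusted p = 0.000326). Both other probes, above background on all 24 arrays, showed the same direction in all 3 pairs, with differences from -2.39 to -1.40.

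Igfbp7, a low-affinity binding protein deposited around vessels, read 7.61, 8.04 and 7.93 in WT LMC with the probe shown and 8.59 or more on all other WT arrays. DRG exceeded LMC by 1.64 ± 0.38 (SE, limma adjusted p = 0.00296) and raphe exceeded LMC by 1.35 ± 0.38 (limma adjusted p = 0.0115). The 4 other Igfbp7 probes, all above background on 24 arrays, differed by -0.11 to 0.83 between DRG and LMC and by -0.45 to 0.11 between raphe and LMC, and both calls were lost with the mean of all probes (limma adjusted p = 0.245 and 0.762). Igfbp2, which binds Igf2 and is made by glia, read between 7.50 and 9.01 on the WT arrays and passed in 0 of the 6 tissue pairs.

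**Figure D3:**
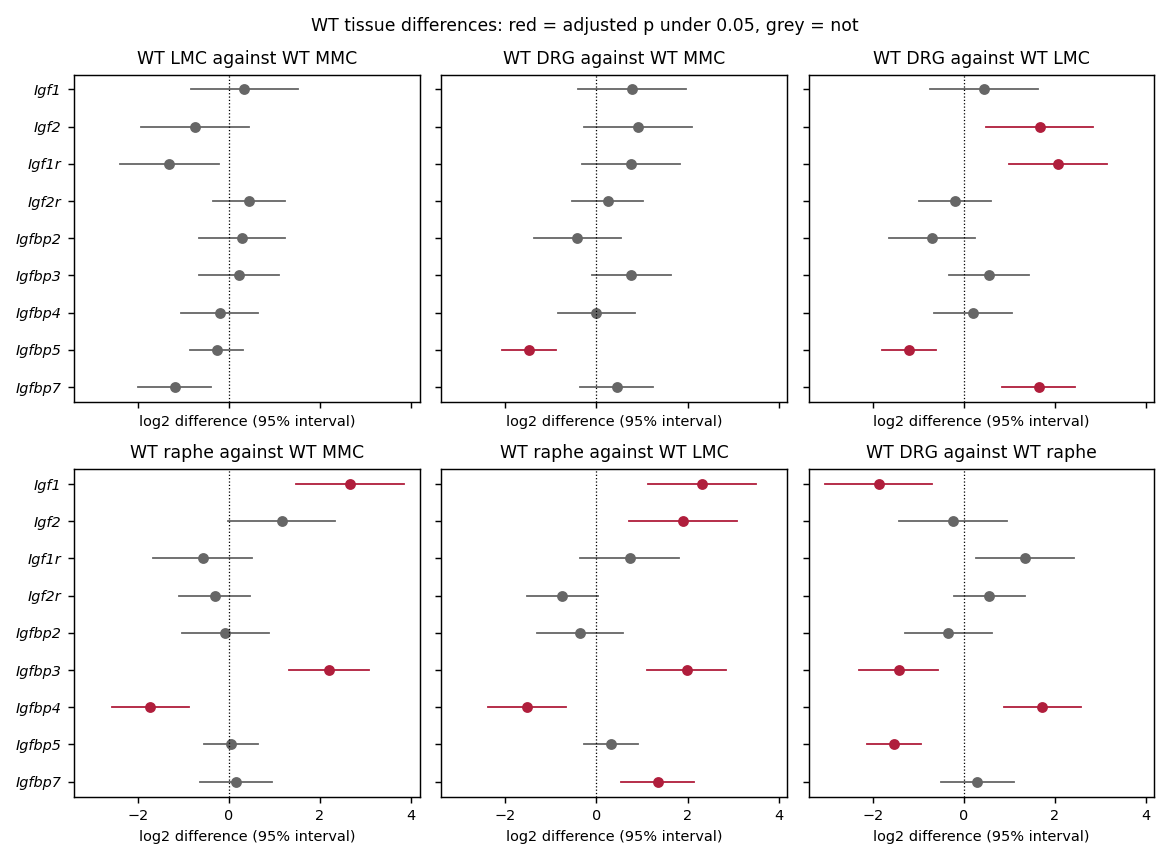
Log2 differences (x axis) of the 9 tested members (y axis) between WT tissues; points are fitted differences, bars are 95% intervals and red marks limma adjusted p under 0.05. Igf1 and Igfbp3 lie to the raphe side and Igfbp4 to the other side in all 3 raphe panels, and Igfbp5 is lower in DRG in all 3 DRG panels.

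**Figure D4:**
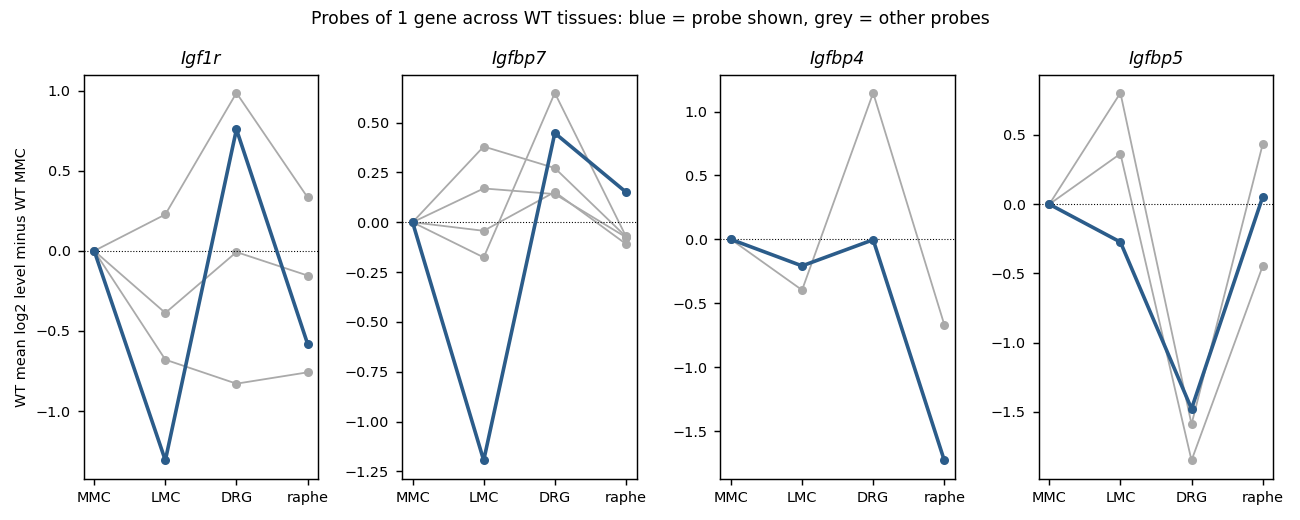
WT mean log2 level in each tissue (x axis) minus that of WT MMC (y axes, which differ), for every probe of 4 members; blue is the probe shown and grey the others. The Igfbp7 drop in LMC of -1.19 is seen with the blue probe and not with the 4 grey ones, while all 3 Igfbp5 probes fall in DRG.

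Counted by pair, 0 of 9 members passed between LMC and MMC in WT, where 3.4% of all genes tested passed, and 1 of 9 between DRG and MMC, where 20% passed. There were 4 between DRG and LMC (23.2% of all genes), 3 between raphe and MMC (19.2%), 5 between raphe and LMC (30.4%) and 4 between DRG and raphe (20.1%). The members' share was above that of all genes in the last 4 of these pairs and below it in the first 2, over 9 members only. All raphe pairs count Igf1, whose WT raphe arrays belong to the contrast used to choose the list. The pairs of DRG and raphe with LMC count Igfbp7, whose calls were lost with the mean of all probes. Nothing is therefore read from these shares. Between the motor columns, Igf1r (-1.31) and Igfbp7 (-1.19) had an unadjusted p under 0.05 with limma, where 21.4% of all genes reached it. The other Igfbp7 probes differed by -0.18 to 0.38 in this pair and the other Igf1r probes by -0.68 to 0.23. Igfbp7 passed (limma adjusted p = 0.0257) without SMA LMC replicate 1, which enters this pair only through the shared estimate of spread.

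Between SMA and WT, 0 of 9 members passed in MMC, LMC or DRG with limma. Over all genes tested, 1.3% passed for MMC, 0.022% for LMC and 0.0101% for DRG, so the background itself was low. An unadjusted p under 0.05 was reached by 1 member for MMC (Igf2), where 14.7% of all genes reached it, by 0 for LMC (6.84%) and by 1 for DRG (Igfbp4, 1.41%). The 9 members had a median difference of -0.26 (MMC), -0.06 (LMC) and -0.32 (DRG), against 0.06, 0.03 and -0.03 over all genes.

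**Figure D5:**
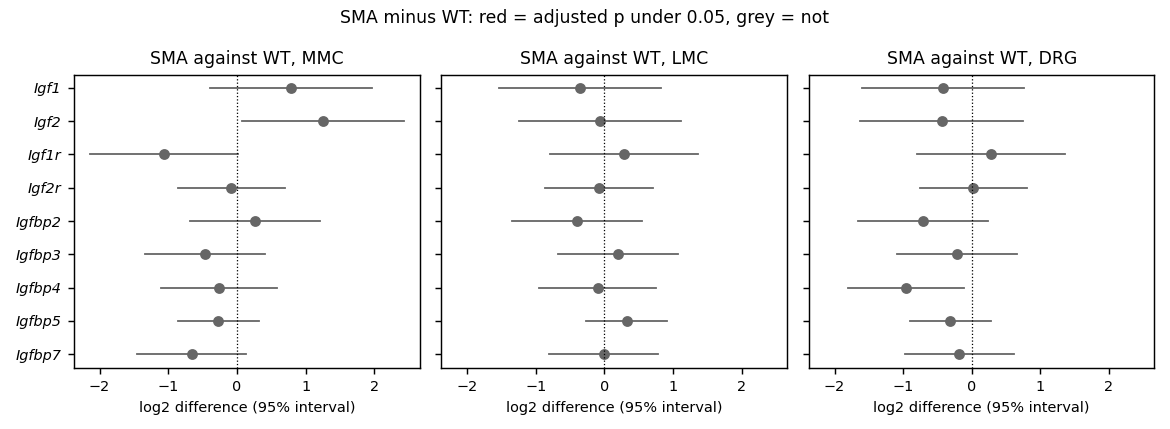
Log2 difference SMA minus WT (x axis) of the 9 tested members (y axis) in MMC, LMC and DRG; points are fitted differences and bars are 95% intervals. No member reached a limma adjusted p under 0.05, and the widest intervals, for Igf1 and Igf2, span more than 2.3 log2 units.

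The summed level of the 8 motor neuron markers was also lower in SMA MMC, at 12.57 to 12.77 against 13.01 to 13.24 in WT MMC, without overlap. The markers did not move together. Mean levels went from 11.86 in WT to 10.52 in SMA for Chodl and from 8.02 to 5.86 for Mmp9. Mnx1 and Prph were lower by less, and Chat, Slc5a7, Slc18a3 and Isl1 were higher in SMA MMC. The part of this sum in the MMC differences of the members and of Dlk1, given below, was not tested. The corresponding sums were 13.34 to 13.54 and 13.50 to 13.60 for LMC, where they overlapped.

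In MMC, Igf2 read 8.27, 7.94 and 6.28 in SMA against 5.39, 6.16 and 7.20 in WT. The groups overlapped, and the difference of 1.25 ± 0.57 (SE) had a limma adjusted p of 0.311. Igf1r read 5.79, 6.89 and 8.60 in SMA against 8.34, 8.20 and 7.93 in WT, a difference of -1.06 ± 0.52 (limma adjusted p = 0.351). A single array, SMA MMC replicate 3, lay above all WT values, and without it the difference was -1.82 (limma adjusted p = 0.0629), against -0.41 without replicate 1. The 3 other Igf1r probes differed by -0.65 to -0.30.

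Igfbp7 in MMC was the other member besides Igf1 whose groups did not overlap, 2 of 9 where 14.7% of all genes did not. It read 8.39, 8.37 and 8.42 in SMA and 8.59, 8.97 and 9.59 in WT, a difference of -0.66 ± 0.38 (SE, limma adjusted p = 0.442). With the 4 other probes the differences were 0.14 to 0.67, in the opposite direction. Igfbp3 (-0.46), Igfbp4 (-0.26), Igfbp5 (-0.27), Igfbp2 (0.26) and Igf2r (-0.08) had overlapping groups. Without WT MMC replicate 3 the differences of Igf2r and Igfbp3 became -0.82 and -1.12, with limma adjusted p-values of 0.0868 and 0.125. With all arrays, their second probes differed by 0.69 and -1.01, that of Igfbp3 being above background on no SMA MMC array.

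In LMC, 0 of 9 members had groups that did not overlap, against 10.3% of all genes. Their differences ran from -0.40 for Igfbp2 to 0.33 for Igfbp5. Igfbp7 read 6.65 on SMA LMC replicate 1 and 8.46 and 8.44 on the others, and its difference of -0.01 became 0.59 without that array. The 95% interval of the Igf1 difference, -1.54 to 0.83, left room for changes larger than those seen in MMC.

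In DRG, 7 of 9 differences were below 0, where the median over all genes was -0.03, or -0.22 with median scaling. Nothing is read from this count. Igfbp4 read 7.12, 6.82 and 7.65 in SMA against 8.51, 8.08 and 7.86 in WT, with no overlap and a difference of -0.96 ± 0.41 (SE, limma adjusted p = 1.00). Its second probe differed by -0.66. Igfbp2 read 7.19, 7.09 and 6.84 in SMA against 7.55, 8.13 and 7.58 in WT, also without overlap, a difference of -0.71 ± 0.46 (limma adjusted p = 1.00). These were 2 of 9 members, where 8.64% of all genes did not overlap. Igfbp5 differed by -0.32 and Igf2r by 0.02.

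Averaged over MMC, LMC and DRG, 0 of 9 members passed with limma, where 0.0552% of all genes passed. An unadjusted p under 0.05 was reached by 0 members, against 5.99% of all genes. The largest mean difference was that of Igfbp4, -0.44 ± 0.24 (SE, limma adjusted p = 0.880). Igf1 averaged 0.01 ± 0.33 (SE). An F test of whether the genotype difference varied among these 3 tissues called 0 of 9 members, where 0.0552% of all genes were called. In this test 0 members had an unadjusted p under 0.05, against 6.95% of all genes. The limma adjusted p was 0.800 for Igf1 and 0.767 for Igf2 and Igf1r.

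The WT tissue differences were also looked up in the SMA groups, which lay on the same chips. Of the 17 WT tissue differences that passed, 14 had the same sign between the SMA groups, and in 13 of these the SMA groups did not overlap. These are 82.4 and 76.5%, against 97.5 and 78.8% of the 11486 differences that passed between WT tissues over all genes. The 3 that turned were those of Igf1 in the raphe. The list was chosen with the fall of Igf1 in SMA raphe known, so nothing is read from the lower shares. Igfbp3 read 9.32, 9.54 and 8.94 in SMA raphe and at most 7.91 in the other SMA groups. Igfbp5 read 9.03, 8.80 and 8.61 in SMA DRG and at least 10.21 in the others. Igfbp4 in SMA raphe, at 5.94, 7.30 and 7.14, overlapped SMA DRG, the difference being 0.40 there against 1.73 in WT. These shifts between genotypes were not tested as interactions with raphe.

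Around the members, a list of 45 further genes of IGF signalling was counted, of which 38 were on the array with a matching symbol. Between SMA and WT, MMC had 1 call among 28 tested genes (1.3% of all genes), LMC 0 among 30 (0.022%) and DRG 0 among 34 (0.0101%). The gene in MMC was Dlk1, an imprinted growth regulator, lower in SMA by -1.19 ± 0.29 (SE, limma adjusted p = 0.0380); its other probe differed by -0.05 and the call was lost under 10 of 33 alternatives. In LMC the smallest unadjusted p-values belonged to the kinases Pdpk1 (-1.32) and Akt1 (95% interval -1.82 to -0.18), both with a limma adjusted p of 0.709. In DRG they belonged to the adaptor Grb14 (-0.78) and to Tsc2 (0.30), a brake on mTOR, both with a limma adjusted p of 1.00.

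Between WT tissues, the counts of this list were 3 of 29 for LMC against MMC (3.4% of all genes), 10 of 33 for DRG against MMC (20%) and 11 of 33 for DRG against LMC (23.2%). They were 3 of 32 for raphe against MMC (19.2%), 10 of 32 for raphe against LMC (30.4%) and 8 of 34 for DRG against raphe (20.1%). The genes that passed were higher in the first tissue in 2, 6, 4, 1, 2 and 4 cases, in this order.

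Several of the genes that passed act on the binding proteins. Pappa, the protease that cleaves Igfbp4, was above background on 0 of 3 WT raphe arrays, so its differences there are bounds. It was at least 5.81-fold lower in raphe than in MMC (limma adjusted p = 1.96e-05) and at least 6.01-fold lower than in LMC (limma adjusted p = 8.81e-06), the bound taking, on each raphe array, the higher of the lowest signal above background and its own. Stc1, a stanniocalcin that inhibits Pappa, was higher in LMC than in MMC by 2.25, a call lost under 6 of 33 alternatives, and lower than LMC in DRG by -3.72 and in raphe by -2.77, and its relative Stc2 was higher in raphe than in LMC by 1.43, with 1 of 3 LMC arrays above background. Htra1, the protease for Igfbp5, was lower in DRG than in MMC by -2.25 and than in raphe by -2.10, with -0.76 and -1.10 by its second probe.

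Among signalling genes that passed, the adaptor Shc1 was higher in DRG than in MMC by 2.81, than in LMC by 1.99 and than in raphe by 3.62, and both other probes had differences of 1.83 to 2.44 over these pairs. Irs2, another adaptor, was higher in DRG than in MMC by 1.92, and Akt1 was higher in LMC than in MMC by 1.61, calls lost under 4 and 5 of 33 alternatives; in WT MMC they were above background on 2 and 1 of 3 arrays. Socs2, a feedback inhibitor of growth hormone signalling, was higher than LMC in DRG by 1.92, where its second probe differed by -0.72, and in raphe by 1.87, where it differed by 0.40; against MMC the raphe difference of 1.52 (limma adjusted p = 0.0493) was lost under 19 of 33 alternatives. Of the imprinted genes, Dlk1 was lower in DRG than in MMC by -2.30, than in LMC by -3.03 and than in raphe by -2.21, with -0.48, -1.70 and -2.33 by its other probe. The zinc finger gene Plagl1 was higher in DRG than in raphe by 2.27, and the non-coding RNA Meg3 was lower than MMC in LMC by -1.26 and in raphe by -1.19, calls lost under 9 and 5 of 33 alternatives.

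Genes with the most similar profile were sought over the 24 arrays among 10190 genes above background on at least 12 arrays, by Pearson's r as a description; the arrays share tissue, chip and amplification. For Igf1 they were Pcp4l1 (r = 0.746), Cnih3 (0.685), Flrt2 (0.625), Zfp780b (0.603) and Eny2 (0.599). Having been picked for their likeness to Igf1, they share its raphe values by choice. Pcp4l1 went from 11.60 ± 0.13 (SD, n = 3) to 10.31 ± 1.24, and Cnih3, an AMPA receptor auxiliary subunit, from 7.99 ± 0.58 to 6.64 ± 1.20.

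For the binding proteins the closest profiles were Nab1 (r = 0.913) and Il1rap (0.891) for Igfbp3, Nacc2 (0.822) and Prkar1a (0.821) for Igfbp4, 4930555G01Rik (0.942) and Gm10413 (0.941) for Igfbp5, Tpm4 (0.841) and Lhfp (0.841) for Igfbp7, and Tssc4 (0.760) and AW551984 (0.758) for Igfbp2. For the receptors they were Cemip2 (r = 0.849) and Plekha5 (0.843) for Igf1r and Nudt18 (0.816) and Mthfd2 (0.812) for Igf2r, and for Igf2 they were Slc9a3r1 (0.787) and Tpt1 (0.783). Between members, r ran from -0.672 for Igfbp3 with Igfbp4 to 0.643 for Igf1r with Igfbp7. For Igf1 it ran from -0.313 with Igfbp4 to 0.223 with Igf2.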

How the data were processed

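The deposited files hold, per the file headers, intensity (1 value per probe and array, for 45281 probes) with its detection p-value. On each array 23.9 to 38.5% of the deposited intensity values were negative, as after a subtracted background. A deposited table of log2 values, with medians per array of 7.54 to 7.57 and the same ranks of probes as the intensities, served as an alternative; how it was normalized was not stated in the labels. The submitters' processing notes name GenomeStudio.

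R 4.3.3 and limma 3.58.1 were used. Background was corrected by normexp, taking the negative-control distribution from the detection p-values, with an offset of 16, which understates changes of dim probes, then quantile normalized and put on the log2 scale. Above background means a detection p under 0.05. A gene was tested where its probe of highest mean was above background on all 3 arrays of at least 1 group compared. All 24 arrays entered a linear model of group means (16 residual degrees of freedom) with a mean-variance trend; p-values are two-sided and adjusted by Benjamini-Hochberg over all genes tested, with a threshold of 0.05. The fit was tested on simulated data. SE belongs to a fitted difference and SD to the 3 arrays of a group. The number of arrays limits the precision.

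Members and lists were chosen with earlier results of these data known. All 10 members were described in each comparison. Of the list of IGF signalling genes, those that passed between SMA and WT were named, or else the 2 of smallest p, and between WT tissues the 2 largest passing differences in each direction. The 5 closest profiles were named for Igf1 and 2 for each other member. A marker sum is the log2 of the summed linear levels of a list. Whether replicate numbers paired the samples could not be decided, since weak correlations of deviations within small groups cannot exclude it. Of 12 pairs of equal number in a tissue, 2 had deviations correlated over 0.1 (median r 0.02, highest 0.32). Of 24 pairs of unequal number in a tissue, 1 did (median r -0.01, highest 0.18). Between WT tissues, 1 of 18 pairs of equal number and 5 of 36 of unequal number did. Between SMA tissues these were 1 of 18 and 0 of 36. The main model treated the samples as unpaired. The alternatives were the deposited log2 values, median scaling, an offset of 50, no filter, a detection p under 0.01, the mean of all detected probes, array weights, a replicate block, only the arrays compared, and each array left out. Some listed genes were not analysed here.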

Additional observations from a re-analysis of the deposited data

Results flagged for a closer look

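The Igf1 values of the SMA and WT groups did not overlap in 2 tissues, and lay in opposite directions. In MMC the difference was 0.79 on the log2 scale (95% interval -0.39 to 1.97, limma adjusted p = 0.557), which did not pass, and 14.7% of all genes had groups without overlap there. The 3 SMA arrays were at 9.74 to 10.20 and the 3 WT arrays at 9.07 to 9.40. In raphe the difference was -3.37, with the SMA arrays at 6.44 to 10.28 and the WT arrays at 11.30 to 12.32. The difference between the tissues was not tested, since the raphe contrast was used to choose the members. The second Igf1 probe differed by 0.34 in MMC, where its groups overlapped, and by -4.53 in raphe.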

How the results depend on the processing

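Between SMA and WT, 0 members passed in MMC, LMC, DRG, their mean or the F test under any of the 33 alternatives, the replicate block included. The Igf1 difference in raphe was -2.54 with the deposited values and -4.28 to -2.36 with 1 array left out; it was -3.37 with the replicate block. Among WT tissues, 9 of the 17 member calls held under every alternative: Igf1 and Igfbp3 in raphe against both motor columns, Igfbp5 in all 3 DRG pairs, Igf1r between DRG and LMC and Igfbp4 between DRG and raphe. The Igf1 calls use WT raphe arrays of the contrast on which the list was chosen, so they are not independent of that choice. The count of members was 3 between raphe and LMC with the mean of all detected probes. With 1 array left out it was 0 to 1 between LMC and MMC, 4 to 6 between raphe and LMC and 2 to 5 between DRG and raphe, the 2 being without WT raphe replicate 1 or 3. The replicate block left all these counts within 1.5 times; over all genes it gave 5 calls in LMC between SMA and WT in place of 2.

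Over all genes, the 114 calls in MMC between SMA and WT became 50 without the filter, 36 with array weights, 5 with only the arrays compared and up to 277 without WT MMC replicate 2. In LMC the 2 calls became 24 without SMA LMC replicate 3, and in DRG the 1 call became 40 with array weights, which also gave 27 for the mean of the 3 tissues and 12 for the F test in place of 6. Between WT tissues, only the arrays compared gave 83 calls for LMC against MMC in place of 312, 1274 for DRG against MMC in place of 1975 and 1054 for raphe against MMC in place of 1825. Array weights gave 5213 for DRG against LMC in place of 2344, 4724 for raphe against LMC in place of 2991 and 3699 for DRG against raphe in place of 2039. Median scaling moved the median of all genes to 0.33 for LMC against MMC and to -0.40 for raphe against LMC, from 0.15 and -0.14; Igfbp7 in the latter pair then had a difference of 1.02 (limma adjusted p = 0.0712). The cause was not tested. Signal over background limits Igf2, Igfbp6 and the second Igf1 probe.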
